A study of Rattus norvegicus with 4 samples.

Results

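Rasgrp2 and Cnksr2 encode regulators of the small GTPases Ras and Rap, and both had higher signals in rat INS-1 cells after a week in high glucose. They were taken as the rows of the deposited value table whose only gene symbol is Rasgrp2 or Cnksr2, using the row with the highest mean over the arrays where a gene has several. Each gene had 1 such row, so the 2 genes are 2 of the 14557 genes named on the array, and both were found in the RefSeq gene table under the same symbol. The pair was chosen for its difference between the glucose groups, so those differences are given as a description with no test.

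INS-1 is an insulin-secreting line from a rat insulinoma and serves as a model of pancreatic beta cells. One group of cells was held in 22.4 mM glucose and the other in 11.2 mM glucose, each for 7 days and each with 2 Affymetrix arrays of total RNA, numbered as replicates 1 and 2. No label says whether the replicates were separate cultures, so the errors and p-values below measure variation among these arrays only, and that variation may be technical. Being a tumour line grown in culture, INS-1 lacks the other cell types of an islet.

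Ras and Rap are molecular switches that are on when bound to GTP. Exchange factors load them with GTP, GTPase-activating proteins turn them off, and active Ras recruits RAF kinases, which start the MEK and ERK cascade, while active Rap acts on integrins, cell junctions and secretion. Rasgrp2 encodes CalDAG-GEFI, an exchange factor that acts mainly on Rap, has calcium-binding EF hands and is best known from platelets, where it links a calcium signal to integrin activation. Cnksr2 encodes CNK2, also called MAGUIN, a scaffold with SAM, CRIC, PDZ and PH domains that is known from neuronal synapses and that gathers regulators of the RAF pathway at the membrane. In beta cells, Rap is best known as a target of the cyclic AMP sensor Epac2, encoded by Rapgef4, in the potentiation of insulin secretion.

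The promoter windows of both genes are shown because the pair lay higher together and their starts differ in base composition. RefSeq's table for build GRCr8 gives 300 bases per gene, from 250 before to 50 after an annotated start, and both genes were matched by symbol. The Rasgrp2 window is chr1:213136484-213136783 on the plus strand and the Cnksr2 window is chrX:40722968-40723267 on the plus strand. Capitals mark CpG dinucleotides.
Rasgrp2: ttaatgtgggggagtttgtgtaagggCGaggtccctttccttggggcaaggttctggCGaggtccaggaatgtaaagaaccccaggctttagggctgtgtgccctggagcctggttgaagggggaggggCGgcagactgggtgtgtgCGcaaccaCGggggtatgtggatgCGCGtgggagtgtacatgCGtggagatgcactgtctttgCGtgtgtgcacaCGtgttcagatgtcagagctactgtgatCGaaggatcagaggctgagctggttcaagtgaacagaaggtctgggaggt
Cnksr2: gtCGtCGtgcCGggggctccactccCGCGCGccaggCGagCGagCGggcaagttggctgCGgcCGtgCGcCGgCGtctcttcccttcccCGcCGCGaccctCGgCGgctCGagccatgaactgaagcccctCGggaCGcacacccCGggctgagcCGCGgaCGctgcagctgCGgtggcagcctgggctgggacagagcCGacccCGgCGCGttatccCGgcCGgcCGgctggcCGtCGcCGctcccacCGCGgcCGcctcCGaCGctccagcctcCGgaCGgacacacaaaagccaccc
The Rasgrp2 window held 11 CpG dinucleotides at 57.0% G and C, and the Cnksr2 window held 44 at 76.0%. Over all 33469 windows of the same length in that table the medians were 7 CpG dinucleotides and 51.7% G and C. The Cnksr2 window was richer in CpG than 98.1% of them, and the Rasgrp2 window than 61.0%.

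A set of 8 short motifs was searched on both strands of each window. The E-box CACGTG, the core bound by carbohydrate-responsive and other basic helix-loop-helix factors, occurred 1 time in the Rasgrp2 window, starting 30 bases before the annotated start, and 0 times in the Cnksr2 window. It was held by 6.42% of all windows. The general E-box CANNTG, which includes CACGTG, occurred 3 times in Rasgrp2 and 1 time in Cnksr2, and 72.1% of all windows held it. The GC box GGGCGG occurred 1 time in Rasgrp2 and 0 times in Cnksr2, with 33.1% of all windows holding it. Neither window held a pair of exact CACGTG motifs 5 bases apart, the spacing of a carbohydrate response element. Only 0.00299% of windows held such a pair, so its absence tells little, and pairs with other letters were not searched. Also absent from both were TGACGTCA, the cyclic AMP response element (1.83% of windows), its shorter form TGACG, which lies within it (21.2%), the AP-1 site TGANTCA (7.33%) and the TATA box TATAAA (14.2%). These counts describe letters in a window and say nothing about which factors bind there.

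The deposited table gives a log2 signal for each of 36685 probe sets on each array, where base 2 is inferred from the range of values and a log2 difference of 1 is a 2-fold change. All differences are 22.4 mM minus 11.2 mM. Array medians lay between 4.73 and 4.80. Replicate 1 of 11.2 mM lay farthest from the other arrays over all probe sets, and was kept. Where leaving out 1 array, this or another, moved a difference by over 1.5 times, the range over the 4 fits without 1 array is given as "range".

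Rasgrp2 (probe set 17623498) had log2 signals of 7.10 and 7.23 at 22.4 mM, against 5.16 and 5.01 at 11.2 mM. Both high-glucose arrays lay far above both others, with 1.94 between the nearest arrays of the groups. The means were 7.16 ± 0.093 at 22.4 mM and 5.08 ± 0.10 at 11.2 mM (SD, n = 2 each), a log2 difference of 2.08 (SE 0.11) or 4.23-fold. The 4 pairs of a high-glucose with a lower-glucose array differed by between 1.94 and 2.22. At 22.4 mM, 74.0% of all probe sets were dimmer than Rasgrp2, and at 11.2 mM 54.6% were. No background level was at hand, so whether the signal at 11.2 mM exceeded background is unknown, and the fold may be understated.

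Cnksr2 (17872391) had 7.40 on both arrays of 22.4 mM, against 5.72 and 5.87 at 11.2 mM. Here too the groups stood clear of each other, by 1.53 between their nearest arrays. The means were 7.40 ± 0.00099 at 22.4 mM and 5.79 ± 0.10 at 11.2 mM (SD, n = 2 each), a difference of 1.61 (SE 0.10) or 3.05-fold. The pairs of arrays differed by between 1.53 and 1.68. A gap between replicates as small as that of Cnksr2 at 22.4 mM was met in 0.755% of all probe sets, so its SD there lies far below that of most probe sets. Of all probe sets, 76.2% were dimmer than Cnksr2 at 22.4 mM and 62.3% at 11.2 mM, and the same limit on its fold applies.

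In their other replicate gaps the pair was ordinary. Rasgrp2 replicates differed by 0.13 at 22.4 mM and by 0.15 at 11.2 mM, and Cnksr2 replicates by 0.15 at 11.2 mM. The median gap over all probe sets was 0.12 at 22.4 mM and 0.15 at 11.2 mM. At 11.2 mM the genes did not share an order, since replicate 1 was the higher array for Rasgrp2 and the lower for Cnksr2. Leaving out each array in turn gave differences between 2.01 and 2.15 for Rasgrp2 and between 1.53 and 1.68 for Cnksr2.

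**Figure D1:**
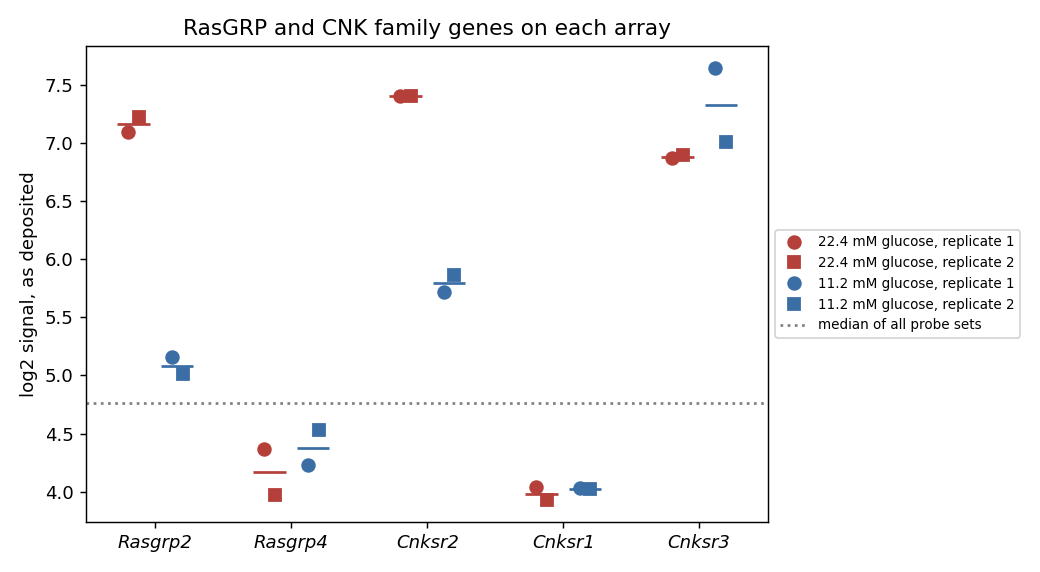
Log2 signal as deposited (vertical axis) of the measured RasGRP and CNK genes on each array, with replicate 1 as circles, replicate 2 as squares and group means as bars; the dotted line is the median over all probe sets. Rasgrp2 and Cnksr2 sit at 7.10 to 7.40 on the 22.4 mM arrays and at 5.01 to 5.87 on the 11.2 mM arrays, while signals of different genes are not on a shared scale of abundance.

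By size, the Rasgrp2 difference was number 3 and the Cnksr2 difference number 11 among the positive differences of 14557 genes. In 63 genes, or 0.433% of all, both arrays of 22.4 mM lay above both of 11.2 mM and the group means differed at least 2-fold, and the pair is part of that set by the way it was chosen. When all 36685 probe sets were tested with limma at a Benjamini-Hochberg adjusted p of 0.05, 0 were called, which is 0% of those tested. An unadjusted p under 0.05 was met by 3344 of them, or 9.12%.

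The measured relatives of the pair had small or negative differences. Rasgrp4, a Ras exchange factor known from mast cells, had 4.36 and 3.97 at 22.4 mM, against 4.23 and 4.53 at 11.2 mM. Its groups overlapped and its signals lay below the median of all probe sets. The difference was -0.21 (SE 0.19, range -0.41 to -0.01). Rasgrp1 and Rasgrp3 were not analysed here. Cnksr1, the CNK family scaffold CNK1, had 4.04 and 3.93 at 22.4 mM, against 4.03 and 4.02 at 11.2 mM, a similarly dim and overlapping pattern with a difference of -0.04 (SE 0.099, range -0.10 to 0.01). Cnksr3, known in kidney cells as an aldosterone-induced scaffold for sodium channel control, had 6.87 and 6.90 at 22.4 mM, against 7.65 and 7.01 at 11.2 mM. Both its high-glucose arrays lay lower, with a difference of -0.44 (SE 0.23), and most of this came from replicate 1 of 11.2 mM. Without that array the Cnksr3 difference was -0.12, whereas it was -0.77 when replicate 2 was left out.

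The wider pathway was described by 14 lists of genes grouped by role, of which 71 of 130 listed genes other than the pair had a probe set named here. Limma called 0 of these 71 over all probe sets, with a lowest adjusted p of 0.366. At an unadjusted p under 0.05 there were 7, 5 with a positive and 2 with a negative difference, which is 9.86% of the 71 beside 9.58% of all genes. The groups did not overlap in 23 genes that lay higher and 18 that lay lower. Over all genes 21.5% lay higher without overlap and 23.1% lower, 44.6% together, beside 57.7% of the 71. The 71 differences ran from -0.74 to 0.62 with a median of 0.01, against a median of -0.0038 over all genes, and 0 of them reached 2-fold in either direction. Without replicate 1 of 11.2 mM the groups did not overlap in 60 of the 71, or 84.5%, beside 73.4% of all genes, shares that grow by construction when fewer arrays are compared.

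**Figure D2:**
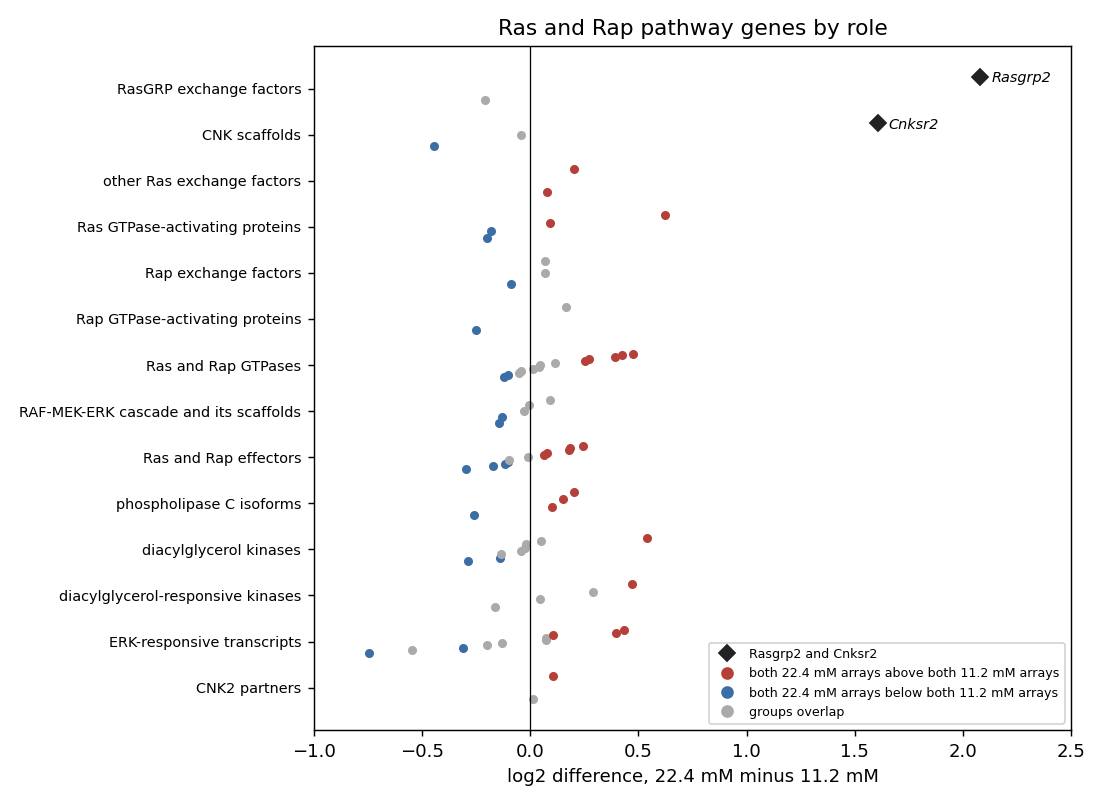
Log2 difference of each measured gene, 22.4 mM minus 11.2 mM (horizontal axis), by role in the pathway (rows); colours give whether the arrays of the 2 groups overlapped. Rasgrp2 at 2.08 and Cnksr2 at 1.61 (diamonds) lie to the right of the other 71 genes, which run from -0.74 to 0.62; the pair was chosen for its differences.

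Among other exchange factors, Sos1, which activates Ras downstream of receptor tyrosine kinases, had 9.51 and 9.44 at 22.4 mM, against 9.24 and 9.31 at 11.2 mM. Both high-glucose arrays lay slightly higher, with a mean difference of 0.20 (SE 0.099). Its homologue Sos2 differed by 0.08 (SE 0.099, range 0.03 to 0.12), with only 0.0015 between the nearest arrays of the groups. Of the Rap exchange factors 3 of 7 were measured, and their differences ran from -0.09 to 0.07. Rapgef2, a Rap exchange factor known from neuronal cyclic AMP signalling, was the 1 of these 3 without overlap, beside 44.6% of all genes. It had 8.28 and 8.20 at 22.4 mM, against 8.29 and 8.37 at 11.2 mM, a difference of -0.09 (range -0.13 to -0.05). Only 0.0055 lay between the nearest arrays of its groups. Rapgef4 was not analysed here.

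Of the proteins that switch the GTPases off, Rasa3, which acts on both Ras and Rap and is known in mouse platelets as the counterpart of CalDAG-GEFI, stood highest. It had 8.46 and 8.54 at 22.4 mM, against 7.67 and 8.08 at 11.2 mM. Both high-glucose arrays lay above the others, with a difference of 0.62 (SE 0.17). Leaving out replicate 1 of 11.2 mM gave 0.42, and leaving out replicate 2 gave 0.83. The Ras GTPase-activating genes Rasa2 and Rasa4 lay lower, with differences of -0.20 (SE 0.099) and -0.18 (SE 0.095). Sipa1l2, a Rap GTPase-activating protein, had 6.66 and 6.74 at 22.4 mM, against 6.99 and 6.92 at 11.2 mM, a difference of -0.25 (SE 0.098).

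The GTPases themselves had a median difference of 0.05 over 13 of 15 listed genes (range -0.06 to 0.14, so its sign is not settled). Of the 13, 5 lay higher and 2 lower without overlap, beside 21.5% higher and 23.1% lower over all genes. Rap1a, a substrate of CalDAG-GEFI, had 9.83 and 9.77 at 22.4 mM, against 9.87 and 9.63 at 11.2 mM, and its groups overlapped (difference 0.05, range -0.08 to 0.17). Rap1b, the main Rap of platelets, had 11.25 and 11.17 at 22.4 mM, against 11.34 and 11.33 at 11.2 mM, a slightly lower level that differed by -0.12 (SE 0.097, range -0.16 to -0.08). Both these genes were named after their values were seen, as the Rap1 genes of the array.

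Rap2b, a member of the Rap2 branch, lay higher, with 6.36 and 6.71 at 22.4 mM, against 5.98 and 6.15 at 11.2 mM, a difference of 0.48 (SE 0.16, range 0.30 to 0.65). Rala, a GTPase of the exocyst pathway that is itself switched on by Ras effectors, had 9.11 and 9.03 at 22.4 mM, against 8.62 and 8.73 at 11.2 mM. Its groups did not overlap either, and the mean difference was 0.39 (SE 0.10). Nras, 1 of the classical Ras genes, had a mean difference of 0.27 (SE 0.11, range 0.17 to 0.37), lowest without replicate 1 of 11.2 mM.

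Downstream, the measured genes of the RAF, MEK and ERK cascade and its scaffolds stayed between -0.14 and 0.09. Map2k1, which encodes MEK1, had 7.90 and 7.94 at 22.4 mM, against 8.07 and 8.05 at 11.2 mM, so both high-glucose arrays lay slightly lower, with a difference of -0.14 (SE 0.094). Shoc2, a scaffold that helps activate RAF, differed by -0.13 (SE 0.10, range -0.20 to -0.06). Of this list 5 of 12 genes were measured.

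Among Ras and Rap effectors, Pik3ca, the catalytic subunit alpha of phosphoinositide 3-kinase, had 7.21 and 7.22 at 22.4 mM, against 7.49 and 7.54 at 11.2 mM. It lay lower on both arrays, with a difference of -0.30 (SE 0.094). Tln1, which encodes talin, the integrin activator that Rap signalling recruits, differed by 0.18 (SE 0.096). Apbb1ip, the adaptor RIAM between Rap and talin, had 3.58 and 3.40 at 22.4 mM, against 3.40 and 3.10 at 11.2 mM, all of them dim, and its difference was 0.24 (SE 0.15, range 0.09 to 0.39). The list's median was -0.01 over 11 of 21 genes (range -0.03 to 0.03).

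Transcripts that respond to ERK activity showed no common direction, with 5 positive and 5 negative differences among 10 measured genes and a median of -0.03. Leaving out replicate 1 of 11.2 mM gave a median of 0.18, and leaving out replicate 2 gave -0.19. Phlda1, an ERK-induced gene of the pleckstrin homology-like family, had 6.77 and 6.58 at 22.4 mM, against 7.77 and 7.08 at 11.2 mM. Its difference was -0.74 (SE 0.25, range -1.09 to -0.40), smallest without replicate 1 of 11.2 mM. Dusp6, the phosphatase that turns off ERK, had 6.22 and 6.14 at 22.4 mM, against 5.97 and 5.60 at 11.2 mM. Its mean difference was 0.40 (SE 0.15, range 0.21 to 0.58), lowest without replicate 2 of 11.2 mM. The feedback inhibitor Spry2 had a mean difference of 0.43 (SE 0.17, range 0.24 to 0.63), lowest without replicate 2 of 22.4 mM.

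Exchange factors of the RasGRP family respond to calcium and diacylglycerol, CalDAG-GEFI itself mainly to calcium, and genes of diacylglycerol signalling were described as well. Dgkz, the kinase that converts diacylglycerol to phosphatidic acid and is known to restrain RasGRP proteins in lymphocytes, had 7.65 and 7.79 at 22.4 mM, against 7.09 and 7.27 at 11.2 mM. Both high-glucose arrays lay above the others, with a difference of 0.54 (SE 0.12). Dgke and Dgkd, other isoforms of this kinase, lay lower, with differences of -0.29 (SE 0.13, range -0.40 to -0.18) and -0.14 (SE 0.10, range -0.19 to -0.08). Over 8 of 10 such kinases the median was -0.03 (range -0.08 to 0.00012).

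Prkca, the protein kinase C isoform alpha, had 8.42 and 8.44 at 22.4 mM, against 7.87 and 8.04 at 11.2 mM. It lay higher by 0.47 (SE 0.11). Of 4 measured diacylglycerol-responsive kinases it was the 1 without overlap, beside 44.6% of all genes without overlap in either direction. Of the phospholipases C, which produce diacylglycerol, Plcb3 lay lower with a difference of -0.26 (SE 0.11, range -0.36 to -0.16), and Plcd4 and Plcg1 lay higher with 0.20 (SE 0.095) and 0.15 (SE 0.10, range 0.10 to 0.21). The Plcd4 signals, 4.02 and 3.96 at 22.4 mM, against 3.79 on both arrays of 11.2 mM, were dim.

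For CNK2, 2 of 5 listed partners were measured. Arhgap39, the GTPase-activating protein Vilse that binds CNK2, had 6.11 and 5.97 at 22.4 mM, against 5.91 and 5.95 at 11.2 mM, a difference of 0.11 (SE 0.10, range 0.04 to 0.18). The cytohesin Cyth2, an exchange factor for Arf GTPases and named after its values were seen as the other measured partner, differed by 0.01 (SE 0.12, range -0.11 to 0.14) with overlapping groups.

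The genes that flank the pair on the chromosome did not show differences of that size. In the RefSeq order, and among protein-coding genes named on the array, Rasgrp2 lies between Pygm, the muscle glycogen phosphorylase, and the urate transporter gene Slc22a12. Pygm had 4.12 on both arrays of 22.4 mM, against 4.34 and 4.11 at 11.2 mM, and differed by -0.10 (SE 0.12, range -0.22 to 0.01). Slc22a12 differed by 0.15 (SE 0.11, range 0.08 to 0.22), and the splicing factor gene Sf1, beyond Pygm, by -0.06 (SE 0.11, range -0.14 to 0.03). Rps6ka4, the kinase MSK2 that ERK and p38 activate, lies beyond Slc22a12 and had 7.27 and 7.08 at 22.4 mM, against 6.55 and 6.93 at 11.2 mM. Both its high-glucose arrays were above the others, with a mean difference of 0.43 (SE 0.17, range 0.24 to 0.62), lowest without replicate 1 of 11.2 mM.

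Cnksr2 lies between Eif1ax, a translation initiation factor, and the kelch-like gene Klhl34. Eif1ax had 9.59 and 9.68 at 22.4 mM, against 9.36 and 9.64 at 11.2 mM, a difference of 0.13 (SE 0.13, range -0.01 to 0.27). Klhl34 differed by -0.18 (SE 0.095). The microtubule-associated gene Map7d2, beyond Eif1ax, differed by -0.07 (SE 0.14, range -0.22 to 0.08), and the muscle gene Smpx, beyond Klhl34, by 0.08 (SE 0.097, range 0.04 to 0.12). None of these 8 flanking genes passed the limma test over all probe sets, and neither did the pair. That test called 0 of 36685 probe sets, so it does not set the flanking genes apart.

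**Figure D3:**
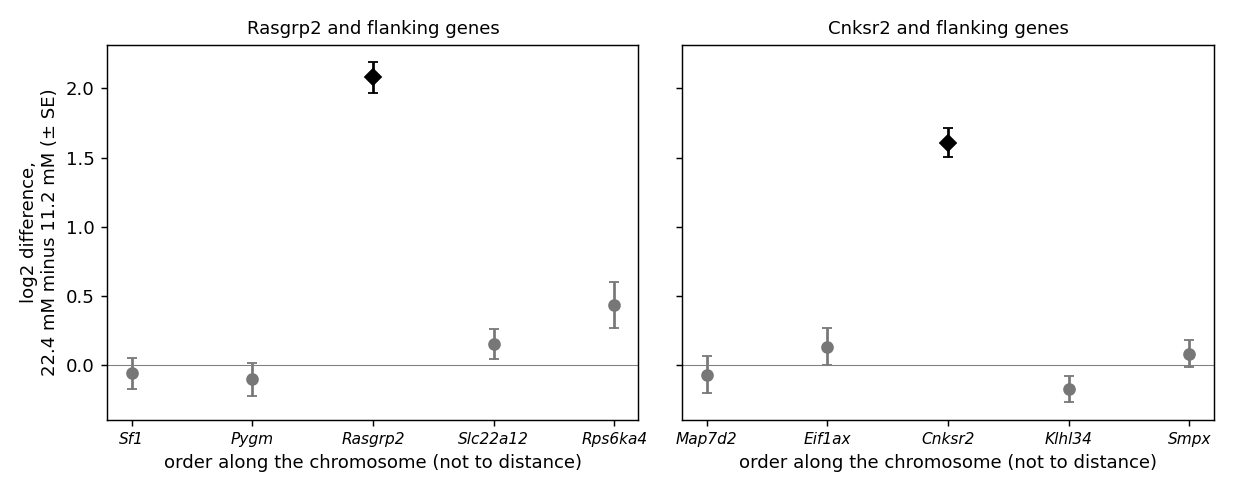
Log2 difference with its SE from the limma fit, 22.4 mM minus 11.2 mM (vertical axis), of Rasgrp2 (left) and Cnksr2 (right) and of the nearest 2 named protein-coding genes on each side, in chromosome order without distances. The 8 flanking genes lie between -0.18 and 0.43, against 2.08 for Rasgrp2 and 1.61 for Cnksr2.

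Profiles most like those of the pair were sought among 8499 other named genes with a mean signal at or above the median, by the root mean square difference of log2 values over the 4 arrays after each gene's mean was subtracted. For Rasgrp2 the nearest gene was S100a4, a calcium-binding protein, with a root mean square difference of 0.068. It had 6.67 and 6.90 at 22.4 mM, against 4.73 and 4.74 at 11.2 mM. Next came Il17rb, a subunit of interleukin-17 receptors, at 0.21, the RNA-editing enzyme gene Adarb1 at 0.24, Cnksr2 itself at 0.26 and the glycosyltransferase gene C1galt1 at 0.27. All of these lay higher at 22.4 mM without overlap.

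For Cnksr2 the nearest was the adenosine receptor gene Adora2b at 0.067, with 8.29 and 8.21 at 22.4 mM, against 6.64 and 6.87 at 11.2 mM. C1galt1 followed at 0.090, the sodium/proton exchanger gene Slc9b2 at 0.094, the potassium channel subunit gene Kcnab3 at 0.12 and Eepd1, a gene of the endonuclease, exonuclease and phosphatase family, at 0.13. Rasgrp2 was number 27 in this order. With 4 arrays in 2 groups, likeness rests mostly on the size of the glucose difference, and it says nothing about shared function.

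**Figure D4:**
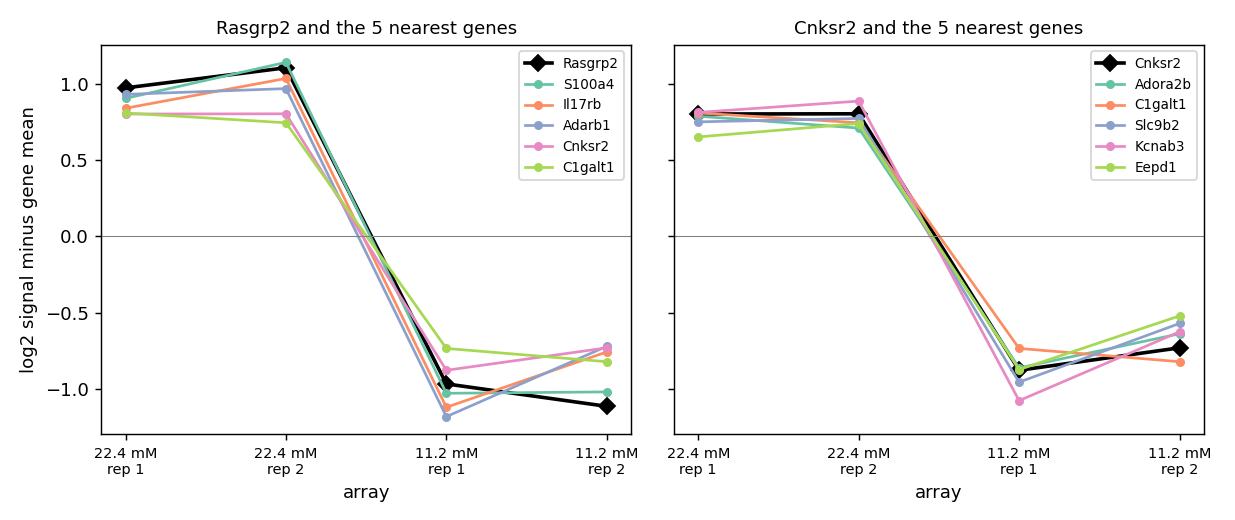
Log2 signal minus each gene's own mean (vertical axis) on the 4 arrays (horizontal axis) for Rasgrp2 (left) and Cnksr2 (right), each with the 5 genes of smallest root mean square difference; lines join the arrays of a gene and do not mark an order. Each gene shown lies above its mean on both 22.4 mM arrays and below it on both 11.2 mM arrays, and S100a4 is 0.068 from Rasgrp2 and Adora2b 0.067 from Cnksr2.

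As CalDAG-GEFI and CNK2 are best known from platelets and neurons, markers of such cells were set beside the pair. All 8 measured of 11 beta cell markers had mean signals above the median of all probe sets, and their mean log2 signal was 10.19 and 10.26 at 22.4 mM, against 10.63 and 10.54 at 11.2 mM. The insulin genes Ins1 and Ins2 were among them, Ins1 at 11.02 and 11.14 at 22.4 mM, against 10.99 and 10.81 at 11.2 mM, and Ins2 at 8.73 and 8.84 at 22.4 mM, against 10.68 and 10.56 at 11.2 mM. Differences of the 8 markers ran from -1.84 for Ins2 to 0.18 for Ins1, 6 of them negative, with a median of -0.16. Of 5 platelet markers 4 were measured and 0 reached the median, with mean log2 signals of 4.14 and 4.08 at 22.4 mM, against 4.26 and 4.14 at 11.2 mM. Of 6 leukocyte markers 4 were measured and 0 reached it, with 3.70 and 3.64 at 22.4 mM, against 3.63 and 3.68 at 11.2 mM.

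Of 6 neuron and glia markers, Slc17a7 and Olig2 were measured. Slc17a7, a vesicular glutamate transporter, had 7.28 and 7.20 at 22.4 mM, against 7.71 and 7.60 at 11.2 mM, with both high-glucose arrays lower. The glial factor Olig2 was dim, with 3.82 and 3.90 at 22.4 mM, against 3.999 and 3.840 at 11.2 mM. Both genes were named after their values were seen, as the measured members of that list. In RNA of whole cultures, more cells with a transcript and more of it per cell cannot be told apart.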

How the data were processed

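Total RNA of INS-1 cells was amplified and hybridized as labelled single-stranded cDNA to Affymetrix arrays, per the labels' protocols. The authors deposited 1 table of log2 values for 36685 probe sets on 4 arrays. Base 2 was inferred from the values, which ran from 2.23 to 13.2. The sources used here do not give the background correction, normalization or summarization, and the values were used as deposited. The number of arrays limits the precision, with a median SE of a log2 difference of 0.12.

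Names came from the platform annotation, which gives 1 gene symbol for 14824 probe sets. Genes with several used the brightest. RefSeq tables of GRCr8 gave neighbours and promoter windows. The comparison of 22.4 mM with 11.2 mM used limma 3.58.1 in R 4.3.3 (lmFit, eBayes, two-sided, 2 residual degrees of freedom), with p-values adjusted by Benjamini-Hochberg over all probe sets. The fit was tested on simulated data. The genes, lists and tests were chosen with earlier results of these data known.

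Named genes were the pair, their families, the nearest 2 named protein-coding genes on each side, the 5 nearest profiles of each (without small RNAs, chemosensory receptors and numbered loci), up to 3 genes per list with the smallest unadjusted p and no overlap, and Ins1 and Ins2. Alternatives were median centring, quantile normalization, the replicate number as a block, other sets of probe sets, an intensity trend and leaving out each array.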

Additional observations from a re-analysis of the deposited data

How the results depend on the processing

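The differences of Rasgrp2 and Cnksr2 kept their sign and moved by less than the spread between replicates under median centring and quantile normalization. With 2 arrays per group, the loss of 1 array cannot move a difference by more than that spread. Nor can it turn the sign where the groups do not overlap, so the values without 1 array are a description only. With the arrays centred on their medians they were 2.09 and 1.62, and with quantile normalization 2.09 and 1.62. Leaving out 1 array gave 2.01 to 2.15 for Rasgrp2 and 1.53 to 1.68 for Cnksr2. The number of probe sets that limma called was 0 in each fit except that of the probe sets with 1 gene symbol. In that fit 62 of 14824 were called, or 0.418%. The 2 listed genes called in it were Rasgrp2 and Cnksr2, and as the same contrast on the same arrays chose them this call is no evidence for the pair. Fewer probe sets are tested there, and limma also estimates its errors anew, with an SE for Rasgrp2 of 0.108 instead of 0.113 over all probe sets. The cause was not tested further. At an unadjusted p under 0.05 the count over all probe sets was 3344, and without 1 array it ran from 2114 to 5709, the highest without replicate 2 of 11.2 mM. With the replicate number as a block, 0 probe sets were called and 2958 had an unadjusted p under 0.05. In a balanced design the block cannot alter a difference of means, so the unaltered 2.08 of Rasgrp2 and 1.61 of Cnksr2 show nothing about stability. The labels do not say whether same-numbered arrays share more than a number. The deviations of replicate 1 from replicate 2 in the groups had a correlation of -0.078 over probe sets, which cannot settle this. Of the 126 list medians recomputed under alternatives, 31 moved by more than the spread between replicates and 95 did not. The 126 include the block, which cannot move a median, and the averaging of each gene's rows, where only 1 listed gene had over 1 row. They also include lists kept whole when only genes at or above the median signal were used. The 95 therefore overstate how stable the medians were.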
